A study of Rattus norvegicus with 18 samples.

Results

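In the gastrocnemius muscle of the rats studied here, 53 genes had more RNA in every aged rat than in any young rat, whether the aged rats had been fed ad libitum (AL) or calorically restricted (CR). These genes were chosen by their measured values. A gene was eligible when it lay on chromosome 1 to 20 and averaged at least 1 CPM (the count per 1000000 non-mitochondrial counts of the library) over the 18 libraries. It was taken when its lowest CPM among the 12 aged libraries exceeded its highest CPM among the 6 young libraries. The table holds 32883 gene identifiers. Of these, 12848 were eligible and 54 of these, 0.42%, met the condition. A single gene whose CR values all lay above the values of aged AL rats was left out, which gave the 53. In the opposite direction, 32 eligible genes (0.249%) had lower values in every aged rat than in any young rat. The balance of the directions depended on how libraries were scaled, with 44 genes higher and 39 lower on TMM scaling, 37 and 39 on DESeq2 size factors and 30 and 43 on upper-quartile library sizes (scalings described below). Every aged rat fed AL lay above every young rat for 350 genes and every aged CR rat did so for 243, so the 54 are 15.4% of the first list and 22.2% of the second. The rise with age in both diets is therefore how the genes were picked. Their values in young and aged rats are given as a description, with no test.

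Total RNA came from frozen muscle of male Brown Norway rats (BN/SsNOlaHSD), 6 per group. The young group, fed AL, was 6 months old, and both aged groups were 28 months old. CR rats received 55% of the AL intake from 2 months of age. All rats were fed AL until then. Total counts per library ranged from 17335401 to 27432767, and the share of counts on mitochondrial genes was 3.10 to 6.75% in aged AL rats, 2.49 to 12.4% in aged CR rats and 4.24 to 6.12% in the young. Of the aged CR libraries 3 could be tied to the group but not to a rat and are called by their library numbers, 8826, 8827 and 8828. Library numbers run in a separate block for each group (8773 to 8780, 8822 to 8828 and 8883 to 8888), so handling and group cannot be told apart if the blocks were handled apart. Marker genes of muscle or of other cell types could not be looked up, since the table names genes only by identifier. In RNA of whole muscle, more cells of a type and more RNA per cell cannot be told apart.

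The gastrocnemius is a large calf muscle of mixed, mainly fast fibres. Its RNA comes chiefly from the multinucleate muscle fibres, with contributions from satellite cells, fibroblasts, vessels, nerve and resident immune cells. With age, skeletal muscle loses mass and force, a state called sarcopenia. Motor neurones withdraw from some fibres, fibrous tissue and fat accumulate between fibres, and inflammatory signalling tends to rise. CR without malnutrition extends lifespan in many rodent strains and slows several of these changes. The genes described here are those in which aged rats of both diets lay outside the range of young rats.

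The 53 genes are numbered here from the widest to the narrowest separation, that is by the ratio of the lowest aged to the highest young CPM. Member 1 is ENSRNOG00000021027 and member 2 is ENSRNOG00000038957. The others are given by number and, where described singly, by position in Rnor_6.0. They lay on 18 of the 20 chromosomes, with none on chromosomes 6 and 19 and the most, 5, on chromosome 10. Chromosomes 18 and 20 held 4 members each, 7.55% of the members against 2.83% and 3.07% of eligible genes, and chromosome 1 also held 4, against 13% of eligible genes. Members 2 (chr18:55666027-55667668) and 3 (chr18:55576239-55584957) lie 81070 bases apart on chromosome 18, and 4 other members also had another member within 1 Mb. Exons of a member summed to a median of 2299 bases, against 2411 bases over eligible genes, and 3 members (2, 5 and 26) had a single exon, 5.66% against 4.49%. The median level per length was 11.6 CPM per kilobase of exon in members and 7.34 over eligible genes. Exons of members 17, 21, 45 and 50 overlapped those of a gene on the opposite strand, by 312, 313, 109 and 734 bases. Counting used no strand option, so reads within these overlapping bases cannot be told apart by strand.

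Most of the differences were modest. The median ratio of group means in CPM was 1.62 for aged AL rats over young rats and 1.43 for aged CR rats over young rats. Both ratios were at least 2 in 16 members, while 21 members were under 1.5 for AL and 28 under 1.5 for CR. The separation was narrow for many: the lowest aged library was at least 1.1 times the highest young library in 16 members and under 1.05 times in 27. Aged rats fed AL varied more among themselves than young rats did, with a median coefficient of variation of 26.5% against 14.3%, and aged CR rats lay between at 16.1%. Over eligible genes the medians were 27.3% in aged AL rats, 19.0% in young rats and 17.6% in aged CR rats. The rule favours genes of small spread among young rats, so nothing is read from the lower value of members there. The spread within the AL group was uneven across members. In 15 of them the highest aged AL library was more than 4 times the lowest, and in 28 it was at most 2 times. Values were also put on TMM-scaled CPM (trimmed mean of M-values), a scale that balances the bulk of genes between libraries, and the median ratios were then 1.47 and 1.42. These patterns are visible in the heat map of members by library.

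**Figure D1:**
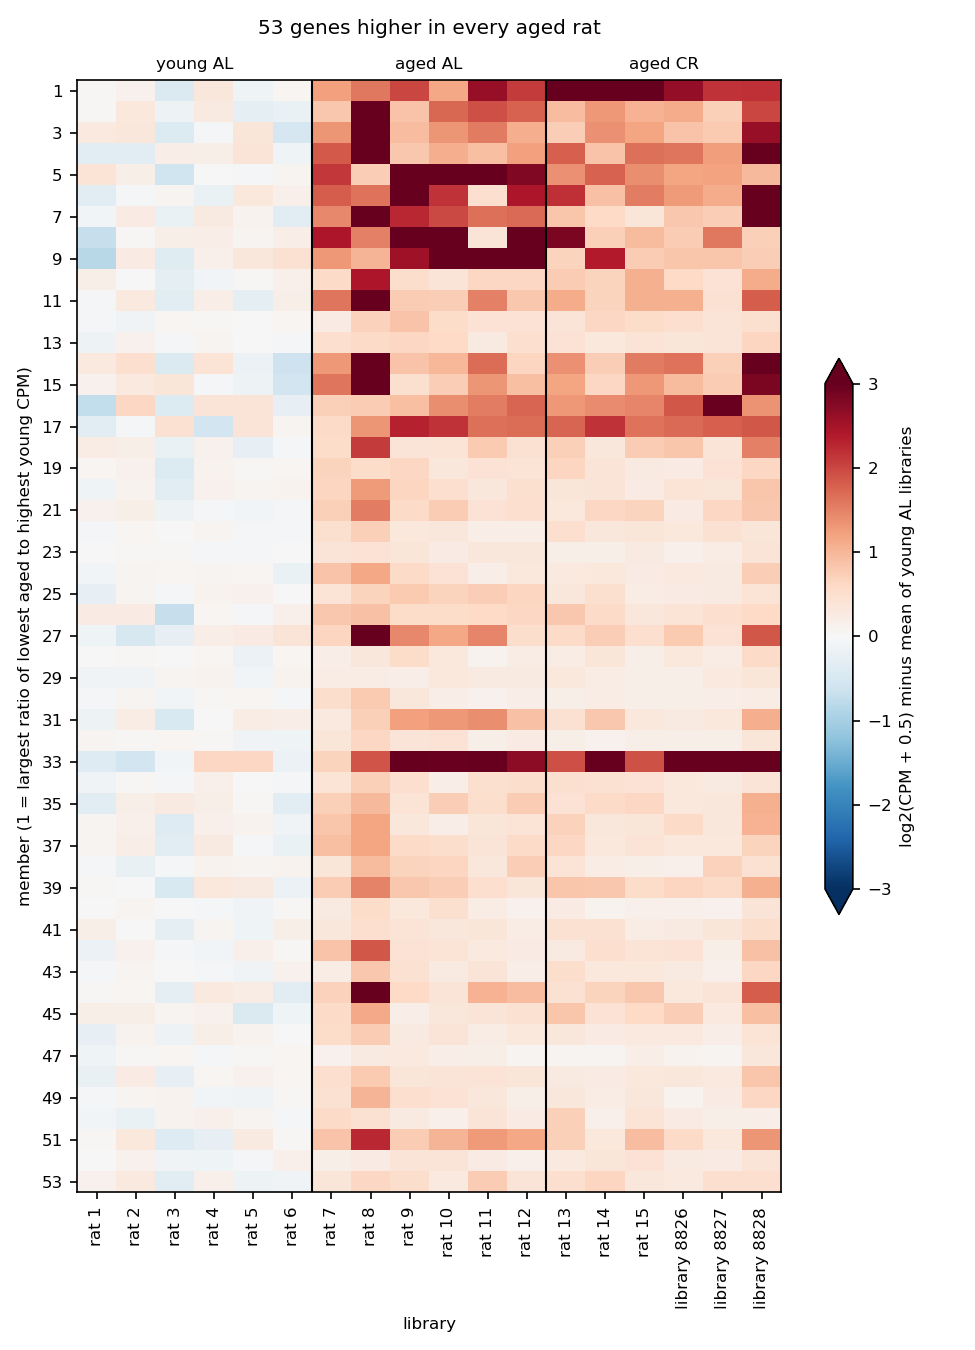
Heat map of log2(CPM + 0.5) minus the mean of the 6 young libraries, for the 53 members (rows, numbered by separation) in the 18 libraries (columns, by group). Young columns are pale, all aged columns are on the red side, and rat 8 and library 8828 hold the darkest cells for many members such as 3, 4, 14 and 15, whereas members 5 and 9 are darker in rats 9 to 12 than in rats 7 and 8.

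Member 1 (chr1:101687855-101692846) had the widest separation of all. Its CPM was 13.9, 15, 10.1, 17.6, 12.4 and 14.3 in young rats 1 to 6. It was 32.9, 42.0, 56.3, 31.4, 86.3 and 59.7 in rats 7 to 12, the aged AL rats. In aged CR rats 13, 14 and 15 it was 117, 114 and 117, and in libraries 8826, 8827 and 8828 it was 87.7, 63.6 and 64.0. The lowest aged library was thus at 1.79 times the highest young one, and both aged groups lay far from the young range, aged CR rats farther than aged AL rats. Group means were 13.9 ± 2.53 in young rats, 51.4 ± 20.7 in aged AL rats and 93.9 ± 25.8 in aged CR rats (CPM, mean ± SD, n = 6 each), 3.71 and 6.77 times the young mean. It met the condition on each of the other 3 scalings described below. On TMM-scaled CPM its ratios were 3.47 and 6.68, and its separation of 1.74 was second to that of member 2, 1.79.

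Member 2 was scarce in young muscle, with 1 to 7 counts per young library, against 11 to 98 in aged AL rats and 13 to 59 in aged CR rats. Its lowest, median and highest CPM were 0.0453, 0.146 and 0.340 in young rats, 0.666, 1.76 and 5.64 in aged AL rats and 0.598, 0.921 and 2.21 in aged CR rats. Rat 8 was the highest of the AL group and library 8828 the highest of the CR group. The ratios to the young mean were 11.7 and 6.10. They rested on few counts in young rats and were 10.2 and 5.99 on TMM-scaled CPM, falling to 7.70 and 4.92 when rat 8 and library 8828, respectively, were left out. Member 3, close to it, showed the same 2 libraries at the top. Its CPM in rats 7 to 12 was 3.09, 19.1, 2.26, 3.10, 3.72 and 2.58, and library 8828 had 8.37 where the other aged CR libraries had 1.91 to 3.25. The young libraries had 0.513 to 1.36, below all of these.

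A run of members was far higher in rat 8 than in the other aged AL rats and far higher in library 8828 than in the other aged CR libraries. The clearest was member 4 (chr10:70411738-70435156). In young rats its CPM ranged from 2.82 to 5.02. In aged AL rats it was 136 in rat 8 and 6.87 to 14.5 in the other 5, and in aged CR rats it was 68.2 in library 8828 and 7.09 to 14.2 in the other 5. The rule sets every aged library above the young range, and the size of the difference depended on these libraries. On TMM-scaled CPM the ratio to young rats was 6.23 for AL with all 6 rats and 2.34 without rat 8, and 5.17 for CR with all 6 libraries and 2.93 without library 8828. Member 7 (chr7:143629455-143633131) was near absent in young muscle, with 0 to 5 counts per library. Its lowest, median and highest CPM were 0, 0.137 and 0.260 in young rats, 1.21, 1.78 and 11.9 in aged AL rats and 0.311, 0.580 and 4.56 in aged CR rats. Its TMM-scaled ratios of 21.4 and 8.39, the former the largest of any member, became 12.8 and 3.83 without rat 8 and library 8828.

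Rat 8 and library 8828 were both the highest of their groups in 30 members on raw CPM. On TMM-scaled CPM they were in 17, against 21.5% of eligible genes. Of the 30 on raw CPM, those described next are members 10, 11, 14, 15, 18, 27, 44 and 51. On TMM-scaled CPM these members kept both libraries highest except member 10, where rat 15 was just above library 8828 among aged CR rats. Their TMM-scaled ratios of aged AL rats to young rats were 1.88, 3.38, 4.32, 5.19, 1.68, 4.46, 2.60 and 2.23 in that order, and 1.43, 2.37, 2.40, 2.15, 1.39, 2.56, 1.73 and 1.98 without rat 8. For aged CR rats they were 1.73, 2.34, 3.86, 3.02, 1.72, 2.17, 1.88 and 1.63, and 1.67, 2.05, 2.74, 2.12, 1.54, 1.73, 1.52 and 1.49 without library 8828. Member 10 (chr20:2704148-2707120) had young values of 5.32 to 7.58 CPM and aged values of 8.82 to 38.2 for AL and 9.21 to 14.9 for CR, so that in it library 8828 stood near the other CR libraries although rat 8 stood apart. Member 51 (chr20:154074-157861) was among the closest to the limit of the rule, with young values up to 21.7 CPM and aged values from 21.9 CPM.

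**Figure D2:**
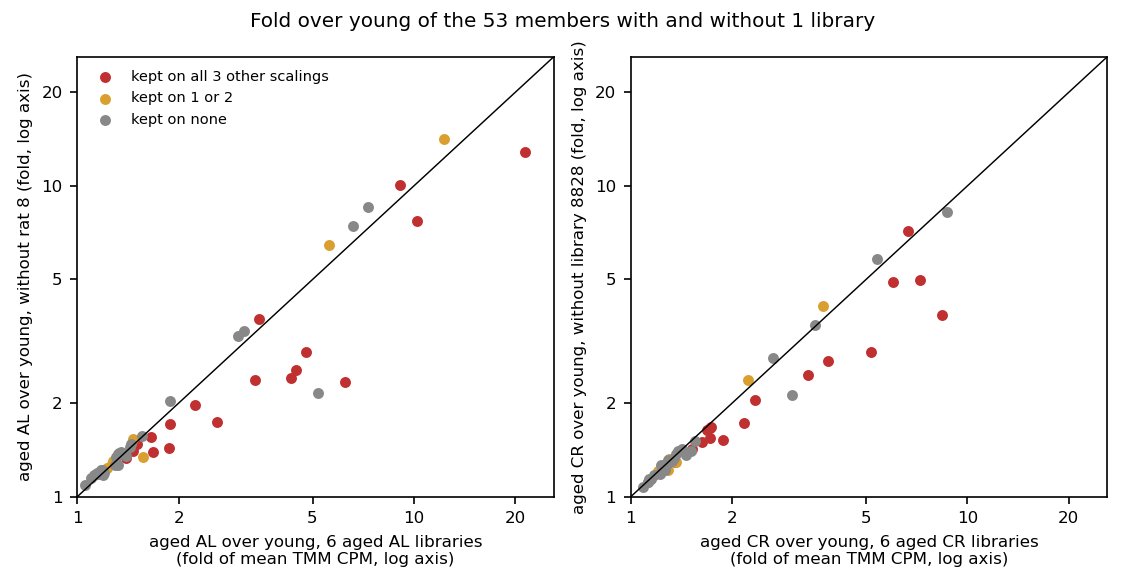
Ratio of group means to young rats on TMM-scaled CPM with all 6 libraries (horizontal, log axis) against the same ratio without rat 8 (left, aged AL rats) or without library 8828 (right, aged CR rats); each point is a member, coloured by how many of the other 3 scalings keep it, and the line marks equality. Points well under the line, such as member 4 at 6.23 and 2.34 on the left, lose much of their ratio with that library.

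Another set of members had the reverse pattern in aged AL rats, lowest in rats 7 and 8 and high in rats 9 to 12. In member 5 (chr18:52550739-52551805), a gene with a single exon, CPM in rats 7 to 12 was 18, 6.61, 42.0, 42.8, 36.3 and 28.9. In the aged CR libraries it was 7.85 to 14.2 and in young rats 2.32 to 5.19. Rat 8 was thus under the CR range, and the other 5 were above every CR library. Member 9 (chr4:97782512-97784842) had 37.2 and 30.2 CPM in rats 7 and 8 and 88.1 to 133 in rats 9 to 12. Of the CR libraries 5 had 23.7 to 26.7 and rat 14 had 78.9, against 8.10 to 20.3 in young rats. Member 33 (chr3:146365092-146373365) reached 139 CPM in rat 9 and was at 15.7 in rat 7, just above the highest young rat at 15.3. In CR libraries it was 38.4 to 130.2, and the ratios to the young mean were 6.80 for AL and 8.72 for CR. Member 33 therefore combined one of the largest ratios with a narrow separation, rat 7 being close to the young range.

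Member 31 (chr17:1872848-1879279) had the highest level of all members, both in CPM and per length at 180.3 CPM per kilobase of exon. Its lowest, median and highest CPM were 143, 208 and 229 in young rats, 239.7, 412 and 512 in aged AL rats and 237, 258 and 419.6 in aged CR rats. Here too rats 7 and 8 were lowest of the AL group, at 239.7 and 323. Member 17 (chr5:114940053-115000691) had 11.7 and 20.1 CPM in these rats and 25.3 to 39.9 in the rest of the group, 25.1 to 36.7 in CR libraries and 5.05 to 10.7 in young rats. On TMM-scaled CPM each of members 5, 17, 31 and 33 had 11 of 12 aged libraries above the highest young library, the exception being rat 8 in member 5 and rat 7 in the other 3. Member 8 (chr3:80529428-80543031) varied in its own way. Its CPM in rats 7 to 12 was 6.66, 3.28, 29.7, 11.1, 1.24 and 13.1, with 8.91 in rat 13 and 1.68 to 3.50 in the other CR libraries, and young rats had at most 1.04. Member 16 (chr15:44799334-44804574) had 8.51 CPM in library 8827 and 2.32 to 3.64 in the other CR libraries, with 1.39 to 3.36 in aged AL rats and up to 1.26 in young rats.

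**Figure D3:**
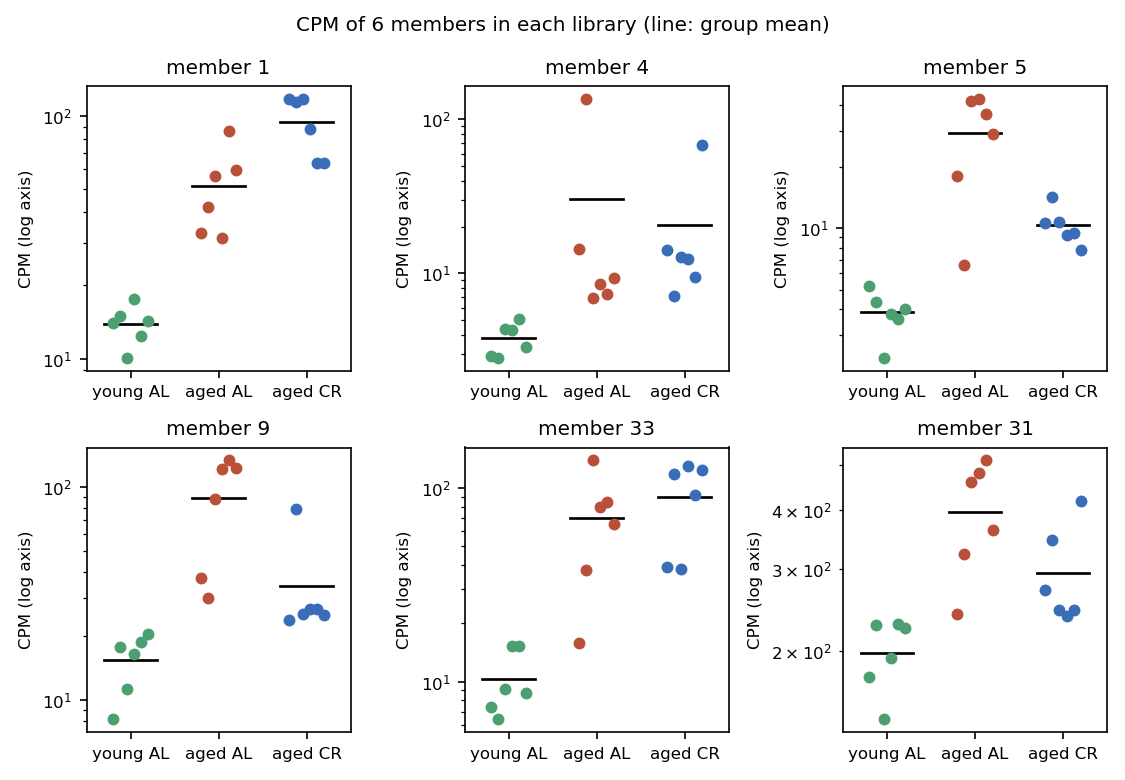
CPM (log axis) of members 1, 4, 5, 9, 33 and 31 in each library by group, with the group mean as a line. Aged points are above all young points in each panel; member 4 has 1 high library in each aged group (136 and 68.2), member 5 has all but 1 AL rat above the CR libraries, and member 1 is highest in aged CR rats.

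Both TMM-scaled ratios were under 1.5 in 25 members, among them 29, 47, 23, 12 and 13. In member 29 (chr3:136657480-136936674) the lowest, median and highest CPM were 53.1, 57.5 and 61.8 in young rats, 65.9, 68.1 and 71.5 in aged AL rats and 64.3, 68.4 and 73.3 in aged CR rats, a ratio of group means of 1.19 for each diet on raw CPM. On TMM-scaled CPM it was 1.17 for CR and lower than that for AL. Member 47 (chr7:80351774-80788094), spanning 436321 bases, had the smallest ratios of all, 1.14 for AL and 1.11 for CR on raw CPM and 1.05 and 1.09 on TMM-scaled CPM, with young libraries at 130.1 to 149 CPM and aged libraries from 151 CPM. Member 23 (chr2:34087880-34185812) was even tighter in young rats, at 84.1 to 89.6 CPM, and had 104 to 117 in aged AL rats and 96.1 to 113 in aged CR rats. Members 12 (chr4:22081604-22116265) and 13 (chr17:10065947-10130907) had the widest gaps of the 25 on raw CPM. Member 12 had 30.7 to 34.6 CPM in young rats, 39.0 to 60.4 in aged AL rats and 43.0 to 51.1 in aged CR rats. Member 13 had 26.9 to 32.3, 36.1 to 46.4 and 37.1 to 46.8 in the same order. On TMM-scaled CPM the lowest aged library of each of these 5 members was under the highest young one.

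The membership of such genes depended on how libraries were scaled. Raw CPM takes the total of each library as its scale, and in these data it put the median eligible gene 0.13 (log2) higher in aged AL rats than in young rats and 0.04 higher in aged CR rats. TMM scaling brought these shifts to 0.01 and 0.02. In the edgeR fit, which included mitochondrial genes, the TMM factor was 1.44 in rat 8 and 0.84 in rat 3, the most extreme of the 18. The factors behind TMM-scaled CPM were computed separately, from all genes outside chromosome MT, and differ from these. Of the 53 members 25 met the same condition on TMM-scaled CPM, 22 on DESeq2 size factors, 18 on upper-quartile library sizes and 35 when mitochondrial counts were included in the library total. On TMM-scaled CPM 19 genes that are no members met it as well. Of the 28 lost on TMM, 12 were lost through a single aged library. Rats 7 and 8 each failed to exceed the highest young library in 15 of them, and members 29 and 47 kept only 2 of 12 aged libraries above the highest young one. On raw CPM rat 3 was the highest young library in 5 members and on TMM-scaled CPM in 23, against 9.02% and 21.9% of eligible genes.

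Members kept on all 3 other scalings numbered 18 (members 1, 2, 3, 4, 6, 7, 10, 11, 14, 18, 20, 21, 27, 36, 37, 39, 44 and 51). Another 28 were kept on none, and 7 on 1 or 2. The 18 were the scarcer genes with the larger ratios. A kept gene needs its aged values above the young range on every scaling, so larger ratios are part of how the 18 were picked. Their median level was 2.07 CPM per kilobase of exon, against 13.6 for those kept on none, and their median TMM-scaled ratios to young rats were 2.99 for AL and 2.02 for CR, against 1.31 and 1.28. In most of them rat 8 and library 8828 were also the highest of their groups. The split was made on these same values, and TMM scaling lowers those of rat 8. Nothing is therefore read from how the 18 and the 28 differ in the counts that follow. Rat 8 was the highest aged rat fed AL in 16 of the 18 and library 8828 the highest aged CR library in 14, both in 13. These are counts on TMM-scaled CPM, and among the 28 kept on none they were 4, 10 and 3. Without rat 8 the median ratio for AL of the 18 was 2.16, and without library 8828 that for CR was 1.70. For the 28 these medians stayed at 1.31 and 1.29. Members 1 and 6 were the ones of the 18 not led by rat 8. Member 6 (chr15:42671203-42693694) was highest in rat 9 with 8.52 CPM and in library 8828 with 7.63, and its AL ratio was 9.07 with rat 8 and 10.1 without. Members 20, 36, 37 and 39 had smaller TMM-scaled AL ratios of 1.47, 1.40, 1.51 and 1.66, which were 1.41, 1.33, 1.48 and 1.56 without rat 8.

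Over all 53 members on raw CPM, rat 8 was the highest aged rat fed AL in 34 and library 8828 the highest aged CR library in 36. Over eligible genes rat 8 led its group in 57.2% and library 8828 in 39.3%. On TMM-scaled CPM the counts were 21 and 26 of 53, against 36.1% and 29.1% of eligible genes, and both libraries led in 17 members, against 21.5%. Rat 9 led in 14, against 13.1% of eligible genes, and rat 10 in 12. Rat 8 had the lowest mitochondrial share of its group, 3.10%, and library 8828 the lowest of all libraries, 2.49%, together with the deepest sequencing. The part of depth and of mitochondrial share in these members was not tested. Without rat 8 and library 8828 together, 63 genes met the condition, 51 of them members, and 15 instead of 16 members had both TMM-scaled ratios of at least 2. Young rats 2 and 4 set the limit most often, as the highest young library of 15 and 13 members, and without either the condition was met by 121 and 99 genes. Leaving libraries out can only ease the comparison of the lowest aged with the highest young value. Members can then be lost only through the minimum CPM or the exclusion for CR values, so these counts are no test of the members.

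**Figure D4:**
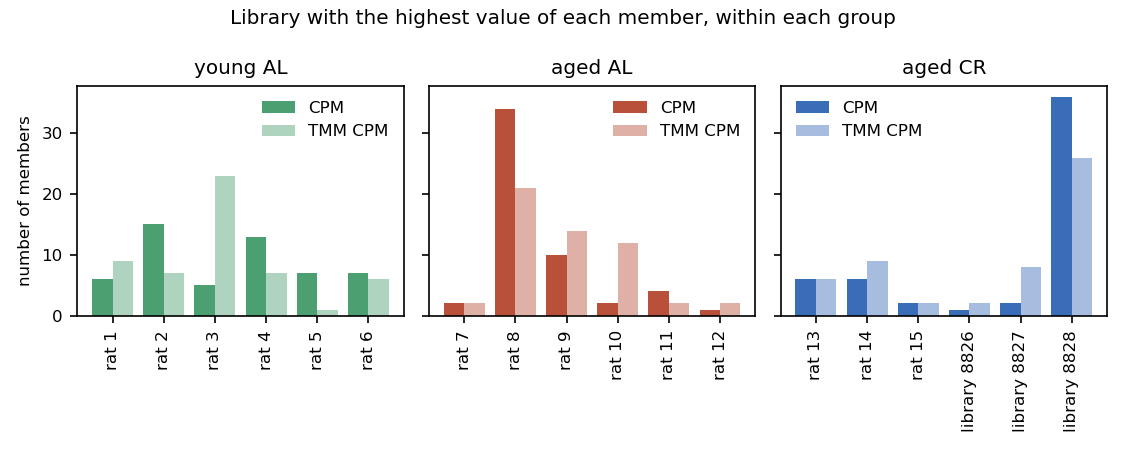
Number of the 53 members whose highest value within a group fell in each library, on raw CPM (dark) and TMM-scaled CPM (light). On raw CPM rat 8 leads its group in 34 members and library 8828 in 36; on TMM-scaled CPM these fall to 21 and 26, and rat 3 rises from 5 to 23 among young rats.

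Members could be ordered by how alike they varied among the aged rats. The Pearson correlation of deviations from the group means, on log2(TMM-scaled CPM + 0.5) over the 12 aged libraries, had a median of 0.15 over pairs of members and 0.001 over pairs of eligible genes, and 7.47% against 3.27% of pairs exceeded 0.8. These are descriptions over libraries that share depth and scaling. With rat 8 and library 8828 left out, the share of pairs above 0.8 was 3.12% for members and 1.33% for eligible genes. In some pairs r was lower without these 2 libraries. Members 4 and 15 had r of 0.971 and members 3 and 44 of 0.956, and without the 2 libraries r was 0.663 and 0.481. Members 2 and 3 had r of 0.849 with all libraries and 0.583 without the 2. Other pairs had r above 0.8 with and without them. Members 14 and 18 had r of 0.983 and 0.879, members 11 and 15 of 0.964 and 0.852, and members 11 and 14 of 0.956 and 0.826. Members 17 and 25 had r of 0.945 and 0.958, members 25 and 31 of 0.880 and 0.944, members 47 and 52 of 0.928 and 0.953, and members 12 and 17 of 0.910 and 0.911. Members 5 and 9 had r of 0.861 and 0.811, and members 17 and 33 of 0.850 and 0.856. Member 1 was most like member 34, with r of 0.820 and 0.751, and member 8 was most like member 13 with all libraries (0.753) and had r of 0.954 with member 6 without the 2.

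Whether CR altered the level that these genes reach in aged muscle was examined between aged CR rats and aged AL rats. The rule bears on this contrast. It drops genes with every CR value above every AL value, and it needs each aged library of either diet above the young range, so a gene lowered by CR into that range could not be a member. Single genes were tested in the lower direction within these bounds, higher values are described, and nothing is read from the share of members called. In the edgeR quasi-likelihood fit of all libraries, with adjusted p-values by Benjamini-Hochberg over 14646 genes, 1 of the 53 members was called lower in aged CR rats (adjusted p up to 0.05 with a change of 1.5-fold or more). Over all genes tested 80, or 0.546%, were called lower. The member called lower was member 5. Its group means were 3.87 ± 0.948 in young rats, 29.1 ± 14.4 in aged AL rats and 10.3 ± 2.16 in aged CR rats (CPM, mean ± SD, n = 6 each). The log2 fold change of aged CR rats against aged AL rats was -1.47 (SE 0.36), with an adjusted p of 0.0432 by edgeR, and 5 of 6 aged AL rats were above all 6 CR libraries. The call did not hold in every fit, although the log2 fold change stayed between -1.69 and -1.30 with any 1 library left out. That change was -1.46 with only the aged libraries. Leaving out each library in turn, the adjusted p ranged from 0.000663 (without rat 8) to 0.101 (without library 8826), above 0.05 without any of 13 of the 18 libraries (rats 4, 5, 6 and 9 to 15 and libraries 8826, 8827 and 8828), and it was 0.0971 when young rats were left out of the fit.

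Next by adjusted p in the lower direction came members 9 and 8. Member 9 had a log2 fold change of -1.32 (SE 0.41, edgeR adjusted p = 0.106), with 5 of 6 CR libraries under every aged rat fed AL on raw CPM. On TMM-scaled CPM rat 8, at 22.4, was under all 6 CR libraries. The adjusted p was above 0.05 in 16 of the 18 fits that left out a library, up to 0.226 without library 8826. The exceptions were 0.0298 without rat 14, its highest CR library, and 0.0221 without rat 8. Member 8 had -1.72 (SE 0.61, edgeR adjusted p = 0.161) and the groups overlapped. Its log2 fold change was -1.06 without rat 9 and -2.30 without rat 13. After these came members 51, 27 and 25, with log2 fold changes of -0.44, -1.02 and -0.24 and edgeR adjusted p of 0.231, 0.293 and 0.296. Member 7, further down, had -1.31 (SE 0.64, edgeR adjusted p = 0.347). Outside library 8828 its CR libraries lay at 0.311 to 0.618 CPM, under all 6 aged AL rats at 1.21 or more, and without that library the log2 fold change was -2.45 and the edgeR adjusted p 0.0245. With rat 8, the highest aged AL library, left out as well, a choice made after seeing the data, they were -1.73 and 0.0217. Member 7 was not called in any other fit that left out a single library. In the upward direction, which the rule cut short, values are a description. The log2 fold change of member 1 was 0.95 (SE 0.24). Rats 13, 14 and 15 and library 8826 were above all aged AL rats in this gene, rat 11 at 86.3 CPM being the highest of these. Member 16 had a log2 fold change of 0.85 (SE 0.43). Library 8827 weighed on this value, at 9.42 TMM-scaled CPM where the other CR libraries had 2.29 to 3.79.

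Values over the list are given as a description, since the rule bounded them and did not bound those of other genes. The median log2 fold change was -0.04 over members and -0.02 over all genes tested, and 31 of 53 members (58.5%) had a negative estimate, against 53.1% of all genes. An unadjusted p under 0.05 was reached by 7 members (13.2%), against 15.3% of all genes. On raw CPM the CR mean was lower in 43 members (81.1%), against 71.9% of eligible genes, but on TMM-scaled CPM in 32 (60.4%), against 54.9%. Raw CPM put the median eligible gene 0.10 (log2) lower in aged CR than in aged AL rats. The median SE of a member's log2 fold change was 0.13. The mitochondrial share, 2.49 to 12.4% in aged CR rats, varied more than in aged AL rats. With its log2 value as a covariate, a choice made after seeing the data, no member was called lower, and member 5 had a log2 fold change of -1.66 and an edgeR adjusted p of 0.0619. In that fit 96 genes were called in all, against 202 without the covariate.

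**Figure D5:**
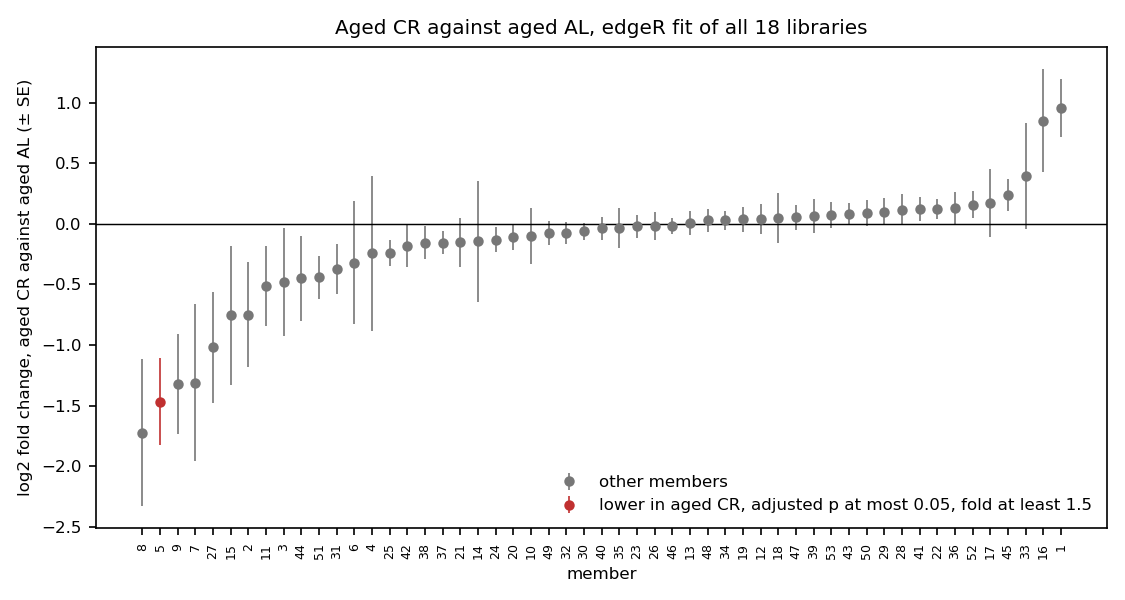
Log2 fold change of aged CR rats against aged AL rats (± SE) from the edgeR fit for each of the 53 members, ordered by value; the red point is lower in aged CR rats with an adjusted p up to 0.05 and a change of 1.5-fold or more. Member 5 (-1.47) is the one called lower, and member 1 (0.95) lies at the upper end.

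The limit of the rule cut through a continuum. The 3 members just inside it, 51, 52 and 53, had a lowest aged CPM of 1.01, 1.01 and 1.002 times the highest young CPM. The 3 eligible genes just outside it, at chr12:19306607-19314016, chr4:6951478-6978073 and chr16:19581812-19583386, had ratios of 0.999, 0.998 and 0.993. Member 53 (chr1:198210525-198213816) had 20.5 to 31.4 CPM in young rats, 31.5 to 43.6 in aged AL rats and 31.5 to 40.3 in aged CR rats. The first gene outside had 19.6 to 26.46, 26.8 to 38.4 and 26.44 to 37.0 in the same order. It fell outside through rat 15, an aged CR rat, and the values on either side are alike. The gene left out for its CR values, at chr5:151089900-151117042, had 8.05 to 10.6 CPM in young rats, 10.8 to 13.2 in aged AL rats and 13.6 to 19.1 in aged CR rats.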

How the data were processed

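RNA of 18 gastrocnemius muscles was sequenced from strand-specific libraries. Per the labels, reads were trimmed with cutadapt 1.2.1 and aligned to Rnor_6.0 with STAR 2.3.0e. The authors counted fragments per gene with featureCounts 1.6.4 without a strand option, and the deposited values are these raw counts, with exon positions and summed exon length (in bases). Precision is set by 6 rats per group and by 17335401 to 27432767 counts per library.

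CPM were computed in Python 3.11.15 as counts per 1000000 counts outside chromosome MT. Fits used edgeR 4.0.16 in R 4.3.3 (filterByExpr, TMM, quasi-likelihood test, Benjamini-Hochberg adjustment over all genes, group as the factor). SE is the size of a log2 fold change over the square root of its F. The rule and the fit were tested on simulated data. Level per length is mean CPM per kilobase of exon. Alternatives were other scalings, other minimums and filters, DESeq2 1.42.0, only the aged groups, and leaving out each library in turn. P-values set a group difference against the spread between rats within groups, and cannot separate group from the blocks of library numbers.

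The members and lists were chosen with earlier results of these data known. Members described singly were to be the 15 of widest separation, the 5 most abundant, those called and those next to the limit, and others were picked after their values were seen. Identifiers have no symbols in the tables used here, so gene lists, cell type markers, promoters and motifs were not analysed here.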

Additional observations from a re-analysis of the deposited data

Results flagged for a closer look

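On raw CPM, 90 sets of 6 libraries were examined, from 27 members and 3 measures of the libraries, each in 3 groups. The 27 were the 15 of widest separation, the 5 most abundant, the 3 nearest the limit of the rule and members 16, 17, 29 and 33, the last picked after their values were seen. Of these sets 25 held a library whose gap to its nearest neighbour exceeded Dixon's critical value, as a share of the range of its group. Chance alone would give about 1 in 20 if values were normally distributed, which CPM need not be, and genes that vary together are not separate cases. The sets were not examined over eligible genes, so the count is not read as a trait of the members. On raw CPM rat 8 was the highest of its group in 57.2% of eligible genes and library 8828 in 39.3%. Rat 8 was that library in 10 sets and library 8828 in 10. On TMM-scaled CPM, examined after seeing the data, 18 of the 25 stood apart through the same library. The other 7 did not: rat 8 in members 2, 48 and 51, library 8828 in members 6 and 13, rat 14 in member 17 and rat 1 in member 8. In member 48 rat 8 was at 196.9 TMM-scaled CPM, below rat 10 at 216.

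In aged AL rats on raw CPM, rat 8 stood above the rest with a gap of 0.718 of the range in member 2, 0.913 in member 3, 0.941 in member 4, 0.878 in member 7, 0.944 in member 10, 0.827 in member 11, 0.881 in member 14, 0.928 in member 15, 0.680 in member 48 and 0.764 in member 51. In aged CR rats, library 8828 stood above the rest with a gap of 0.660 in member 2, 0.792 in member 3, 0.884 in member 4, 0.640 in member 6, 0.928 in member 7, 0.644 in member 11, 0.635 in member 13, 0.780 in member 14, 0.831 in member 15 and 0.893 in member 48.

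Other libraries stood apart in members 8, 9, 16 and 17. In member 8 rat 13 was high among aged CR rats (gap 0.749, at 8.91 CPM against 3.50 in the next) and rat 1 was low among young rats (gap 0.769, at 0.328 CPM against 0.876). In member 9 rat 14 was high among aged CR rats, with a gap of 0.946, at 78.9 CPM against 26.7. In member 16 library 8827 was high among aged CR rats (gap 0.786, at 8.51 CPM against 3.64), and in member 17 rat 14 was (gap 0.645, at 36.7 CPM against 29.2). Total counts, mitochondrial share and the summed CPM of the members held no such library in any group.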

How the results depend on the processing

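The number of genes higher in every aged rat was 53 and became 44, 37 and 30 on TMM, DESeq2 and upper-quartile scaling, of which 25, 22 and 18 were members. Leaving out each library in turn gave 55 to 121, the highest without young rats 2 (121) and 4 (99). Fewer libraries ease the condition, so larger counts here were built in and are no check of it. Members called lower under CR than in aged AL rats numbered 1 and became 2 with DESeq2 (members 5 and 9), 0 with only the aged libraries, 0 without a filter beyond 1 count, 0 to 2 with a library left out, 3 without both rat 8 and library 8828 (members 5, 7 and 9) and 0 with mitochondrial share as a covariate. The genes called between the aged groups numbered 202 and became 444, 130 and 129 in the first 3 of these settings, 477 and 96 in the last pair, and 69 to 385 with a library left out, moving by over 1.5 times without rat 7 (128), rat 8 (385), rat 10 (129), library 8826 (69), library 8827 (103) or library 8828 (361). The last pair of settings and the use of all chromosomes and scaffolds (54 genes) were chosen after seeing the data. The cause of these changes was not tested. The median log2 fold change of the members between the aged groups stayed from -0.08 to -0.002 in all 26 alternatives run for it. Total counts were higher in aged CR libraries than in aged AL libraries (means 23211900 and 19840700, exact two-sided permutation test, p = 0.0498, n = 6 each). Members 2 and 7 had under 10 counts in every young library, so their ratios are imprecise. No paired analysis was possible because each group held different rats.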
